A study of Canis lupus familiaris with 6 samples.

Results

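Potassium channel genes were followed across the cell classes of dog retina: every gene whose symbol in the deposited gene lists begins with KCN, a letter from A to V and a number, plus KCNMA1 and the KCNMB genes. The rule found 86 genes of 34981, in 17 sub-families named by the letter after KCN. All 86 had at least 1 UMI (a counted RNA molecule) in the 6 libraries, 33 had fewer than 150 UMIs, and they held 527069 UMIs in all. A filter on low counts left 47 members for the comparison of cell classes and 39 outside it, and 48 members were tested for a change over the graft in at least 1 class. No member served to assign cells to classes.

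The retinas were of immunosuppressed dogs of normal or wild-type genotype, and fragments of human retinal organoids lay beneath them. The organoids came from the established human embryonic stem cell line WA09 carrying a CRX-tdTomato reporter. In each of 3 experiments (named LG5, RC726 and RC724), 1 retinal punch of 5 mm above the graft and a 5 mm control punch from a part of the retina without graft were taken 3 days after grafting, dissociated and sequenced as 3' single-cell libraries, so that n = 3 in each group. Immunosuppression was common to both groups, and the sources used here do not say whether the 3 experiments used different dogs, so p-values measure the spread between these experiments only.

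Potassium channels let potassium leave or enter a cell and so set its resting voltage and shape its response. Voltage-gated subunits (KCNA to KCNH, KCNQ, KCNS and KCNV) open on depolarization or modify partners that do, inward rectifiers (KCNJ) and leak channels (KCNK) hold the resting voltage, and the KCNM, KCNN, KCNT and KCNU genes encode channels gated by ions or voltage inside the cell. In the retina they are known for trimming the light response of photoreceptors, for shaping the release of transmitter by interneurons, and for the clearing of potassium from the tissue by Müller glia.

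After filtering, 8051 to 22446 barcodes remained per library, from 34768162 to 60755006 deposited UMIs, and libraries shared between 0.174% and 0.664% of the barcodes of the smaller one. Cells were put in classes by marker genes, and since no label names the classes each carries the ending -like. Of its own markers, the class was highest of the 6 classes for 13 of 14 in rod-like cells, 11 of 12 in cone-like, 16 of 20 in bipolar-like, 9 of 10 in amacrine-like, 7 of 9 in horizontal-like and 11 of 11 in Müller-like cells. The same markers had assigned the cells, so these counts do not test the classes. A library held 5223 to 7054 rod-like, 181 to 967 cone-like, 571 to 4399 bipolar-like, 45 to 447 amacrine-like, 22 to 103 horizontal-like and 1231 to 7042 Müller-like barcodes. Levels are a gene's UMIs per 1000000 UMIs of a class (CPM), summed per library and not divided by gene length, so values compare 1 gene between classes or groups and not one gene with another. LG5 stands apart from the other experiments: many members were several times lower there in both punches, and it alone was counted with Cell Ranger 6.0.2. The part of the software in that difference was not tested, so each level is given by experiment, in the order LG5, RC726, RC724.

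In control punches most members were above the mean of the other classes in 1 or 2 of the 6 classes, and amacrine-like cells held the most of them. Of the 47 members tested, 18 had their highest mean level in amacrine-like cells, 9 in bipolar-like, 8 in horizontal-like, 5 in Müller-like, 4 in rod-like and 3 in cone-like cells. Against the mean of the other 5 classes (edgeR's quasi-likelihood test, adjusted p under 0.05 over all genes), 26 members were higher in amacrine-like cells, where 20.9% of all genes tested were higher. In bipolar-like cells 18 were higher beside 21.8% of all genes, and in horizontal-like cells 12 beside 16.1%. Rod-like cells had 5 higher members where 31.5% of all genes were higher, cone-like cells 7 where 20.2% were, and Müller-like cells 11 where 34.2% were. The median log2 difference of the members was 2.81 in amacrine-like and -1.29 in rod-like cells, beside -0.07 and 0.01 over all genes tested. At least 1 class was higher for 46 of the 47 members, close to the 88.4% of all genes for which this held. Exactly 1 class was higher for 17 members, 2 for 25 and 3 for 4. How all genes divide over 1, 2 or 3 classes, or by class of highest mean, was not counted. Neither pattern is thus shown to be particular to the members. The filter on low counts keeps a gene that passes in 1 class alone, for members and all genes alike.

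**Figure D1:**
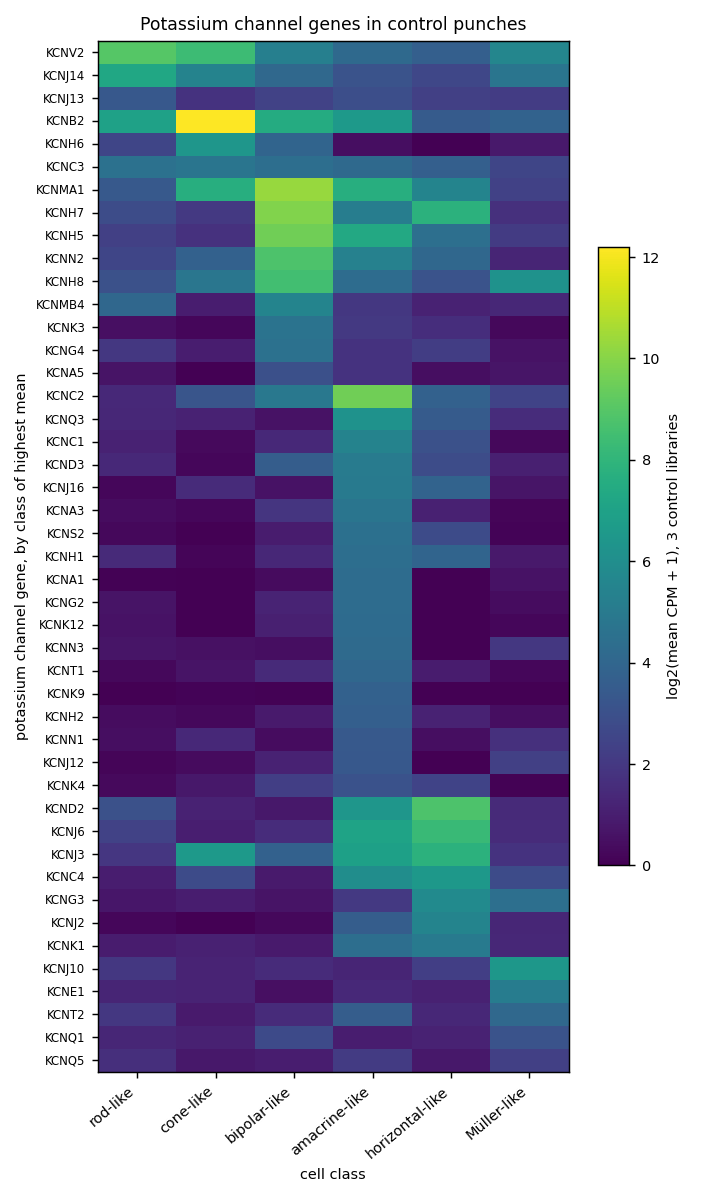
Color gives log2 of the mean CPM plus 1 over the 3 control libraries for 45 of the 47 tested potassium channel genes (rows, grouped by the class of their highest mean) in 6 cell classes (columns). The rod-like block holds 3 genes and the amacrine-like block 18.

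Rod-like cells were marked by KCNV2, a silent subunit of photoreceptor inner segments whose loss is known to cause a cone dystrophy with altered rod responses. It stood at 599.9, 503 and 397 CPM in control rod-like cells and at 450.5, 316 and 204 CPM in cone-like cells. In every experiment the rod-like value was the higher one, and both photoreceptor classes were above the mean of the other classes, by 3.94 ± 0.31 (log2 ± SE, n = 3 libraries, adjusted p = 1.2e-07) in rod-like and 3.14 ± 0.31 (adjusted p = 1.5e-06) in cone-like cells.

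KCNJ14, an inward rectifier, was also a gene of the rod-like class, at 276, 107 and 76.0 CPM, 3.93 ± 0.25 log2 units above the other classes (adjusted p = 3.9e-08). Its level in cone-like cells was 115, 8.07 and 6.78 CPM, so the ratio of the rod-like to the cone-like level was smallest in LG5. KCNMB4, an accessory subunit of the large-conductance calcium-activated channel, passed the test in rod-like cells at 9.45, 17.1 and 20.5 CPM (2.38 ± 0.36, adjusted p = 5.3e-05), but was higher still in bipolar-like cells at 29.2, 37.1 and 68.6 CPM. KCNJ13, an inward rectifier known from the retinal pigment epithelium, had its highest mean in rod-like cells, at 0.61, 8.63 and 19.1 CPM, with a spread between experiments as large as its mean of 9.43 ± 9.25 (SD, n = 3).

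Cone-like cells were set apart by KCNB2, the pore subunit of a delayed rectifier. It stood at 1141, 5217 and 7759.7 CPM in cone-like cells against 23.6, 146 and 212 CPM in rod-like cells, and no control library of another class reached the lowest cone-like value. The difference from the other classes was 6.47 ± 0.24 (adjusted p = 2.2e-11). KCNH6, an ether-a-go-go-related subunit, was at 88.7, 87.6 and 78.7 CPM in cone-like cells (6.64 ± 0.38, adjusted p = 1.9e-08), the same range in all 3 experiments, with bipolar-like cells next at 22.1, 13.5 and 7.41 CPM. The naming rule also took KCNV2 for this class, with the values given above.

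**Figure D2:**
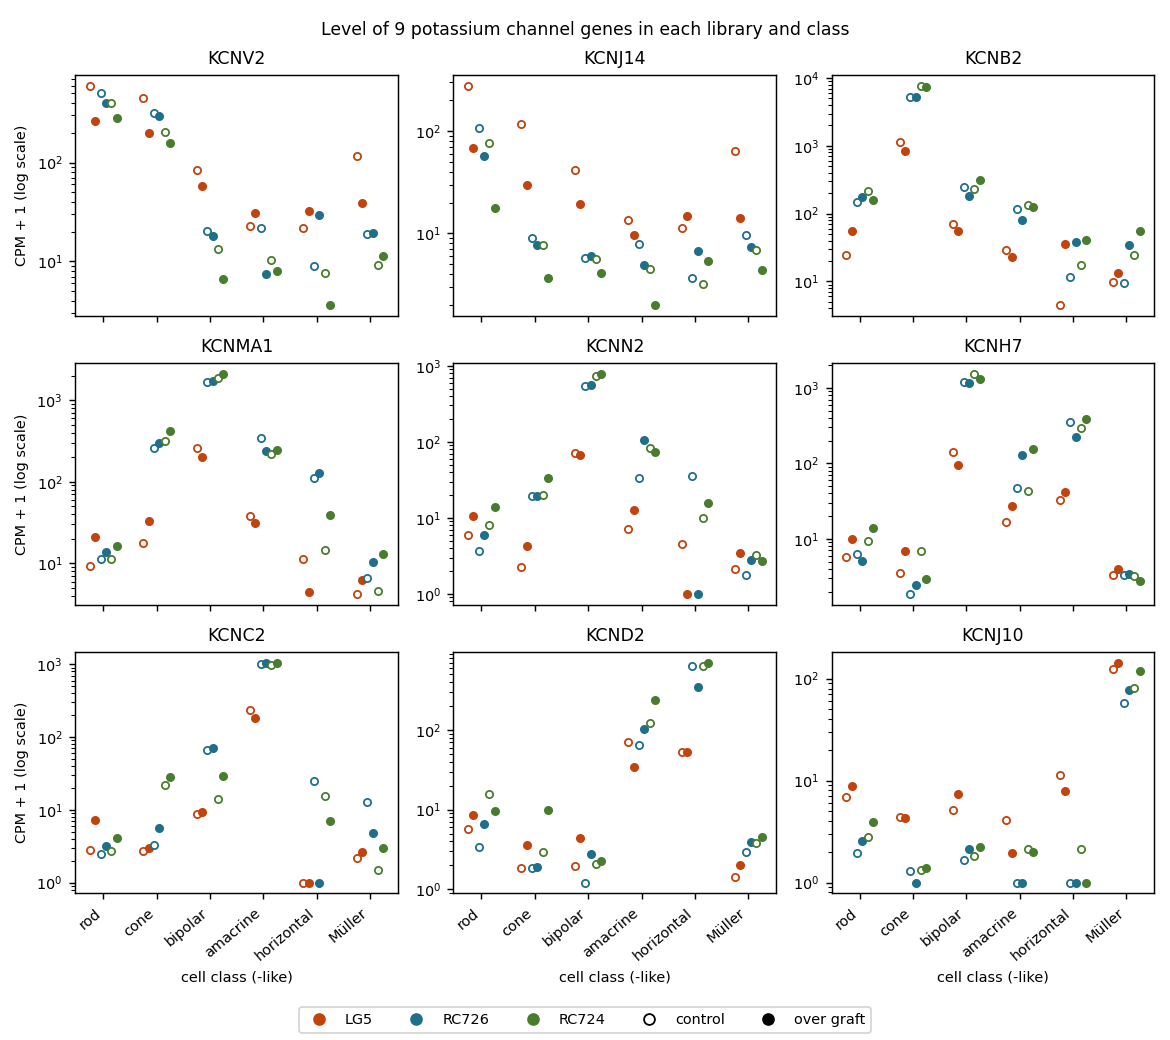
CPM plus 1 on a log axis for 9 potassium channel genes in 6 cell classes. Each point is 1 library, open for control and filled for over the graft, colored by experiment. KCNB2 is above 1000 CPM in all 3 control libraries of cone-like cells, and KCNJ10 is above 50 CPM in those of Müller-like cells.

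Bipolar-like cells held a mix of ether-a-go-go family and calcium-activated channels. KCNH7 stood at 140.4, 1192 and 1518 CPM, 6.03 ± 0.38 above the other classes (adjusted p = 6.6e-09), and KCNH5 at 233, 823 and 1235 CPM, 6.29 ± 0.40 above them (adjusted p = 7.9e-09). KCNMA1, the pore of the large-conductance calcium-activated channel, was at 254, 1652 and 1869 CPM (5.03 ± 0.42), and KCNN2, a small-conductance calcium-activated channel, at 70.2, 535 and 731 CPM (5.52 ± 0.40, adjusted p = 3.0e-08). For each of these 4 genes the LG5 value was the lowest of the 3, and bipolar-like cells were the highest class within each experiment. KCNK3, an acid-sensitive leak channel, was steadier between experiments, at 14.1, 27.1 and 30.2 CPM (5.72 ± 0.47). Its mean over the other classes was 1.17 CPM. It thus passed the filter on low counts mainly through bipolar-like cells, and no p-value is given. KCNMA1 was also found in cone-like cells at 17.0, 261 and 314 CPM and in amacrine-like cells at 37.3, 342 and 219 CPM, and passed the test in both classes.

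Amacrine-like cells held the highest mean of more tested members than any other class. KCNC2, a fast delayed rectifier, was the member of most control UMIs in its sub-family. KCNC2 stood at 238, 1017 and 973 CPM, and its mean of 742 ± 437 (SD, n = 3) compares with 28.7 CPM in the next class, bipolar-like cells. The naming rule took 4 low genes with little signal elsewhere: KCNK9, an acid-sensitive leak channel, at 4.66, 25.8 and 8.07 CPM, KCNA1, a Shaker-type delayed rectifier, at 23.3, 12.02 and 21.9 CPM, KCNK12, a tandem-pore subunit, at 24.9, 12.02 and 18.4 CPM, and KCNG2, a silent subunit, at 7.77, 24.0 and 25.4 CPM. Their log2 differences from the other classes were 7.57 ± 0.62, 7.28 ± 0.62, 6.70 ± 0.69 and 6.53 ± 0.56. Their mean levels in the other classes were 0.03, 0.16, 0.35 and 0.44 CPM. The filter on low counts thus took them in through amacrine-like cells alone. For that reason no p-value is given. The naming rule also picked them for the size of this difference among members past the threshold. It picked up to 4 genes in the other classes in the same way. The adjusted p-values printed for those genes are thus no independent support. Because other classes held almost no UMIs of these genes, the size of these fitted differences depends on the prior count of the fit. KCNH2, the ether-a-go-go-related subunit known from the heart, was at 7.77, 22.3 and 5.76 CPM, and KCNS2, the silent subunit with most control UMIs among the KCNS genes, at 31.1, 13.7 and 19.6 CPM.

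Horizontal-like cells were marked by inward rectifiers and an A-type channel. KCNJ2, a strong inward rectifier, was nearly equal between experiments at 41.6, 48.3 and 41.3 CPM (6.51 ± 0.46, adjusted p = 1.3e-07). KCNJ6, a subunit of inward rectifiers opened by G proteins, stood at 191, 442 and 275 CPM (5.85 ± 0.43, adjusted p = 5.0e-08), with amacrine-like cells next at 109, 137 and 152 CPM. KCNG3, a silent subunit, was at 27.7, 85.8 and 55.8 CPM (4.57 ± 0.38, adjusted p = 1.7e-07) and passed in Müller-like cells too, at 7.49, 29.3 and 25.9 CPM (3.65 ± 0.30, adjusted p = 3.7e-08). KCNK1, a tandem-pore leak channel, stood at 41.6, 13.4 and 38.0 CPM. These levels rest on few cells, 22 to 103 barcodes a library.

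KCND2, a subunit of the A-type transient channel, was at 52.0, 627 and 634 CPM in horizontal-like cells (6.47 ± 0.40, adjusted p = 5.2e-09). Barcodes that passed no class limit held it at 51.1, 494 and 1715 CPM, so the highest control value in the series, in RC724, came from unassigned barcodes. Those barcodes held 67.3% of all control UMIs of KCND2. The same was true of 64.0% of KCND3, 71.3% of KCNH1, 72.1% of KCNMB2 and 66.2% of KCNJ5 UMIs, the other members with over 50% of at least 50 control UMIs outside the classes (a list drawn up after these values were seen). Unassigned barcodes were 1.90% to 7.23% of a library, and no list of markers names them.

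Müller-like cells were set apart by KCNJ10, the inward rectifier through which these glia are known to take up and release potassium. It stood at 124, 57.3 and 80.6 CPM, and none of the other 5 classes exceeded 10.4 CPM in a control library. The difference from the other classes was 6.36 ± 0.24 (adjusted p = 1.9e-11). KCNE1, an accessory subunit of KCNQ1, was at 42.0, 34.8 and 25.1 CPM (6.14 ± 0.39, adjusted p = 2.1e-09). KCNQ1 itself had its highest mean in Müller-like cells, at 11.6 and 11.3 CPM in RC726 and RC724, but 0 UMIs in LG5, which allows a level of up to 0.19 CPM by counting error alone. KCNT2, a sodium-activated channel, was spread over a wide range of 1.14, 8.82 and 38.5 CPM (3.16 ± 0.55, adjusted p = 1.4e-04).

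KCNV2 also appeared in Müller-like cells, at 116, 17.9 and 8.28 CPM. The summed rod markers in the same cells were 9181, 1141 and 826 CPM, and both the gene and these markers were highest in LG5. A part of the UMIs in a droplet comes from free RNA. It was estimated as the rod-marker share of a class over that of all kept barcodes of the library. No empty droplets were used, so doublets and wrongly classed cells also enter the estimate. It was 54.7%, 8.58% and 11.6% of the UMIs of Müller-like cells in the 3 controls and 47.4%, 12.8% and 16.1% over the graft. In bipolar-like cells it was 40.7%, 9.29% and 15.4% in control and 79.3%, 12.4% and 18.0% over the graft. The part of free RNA in the KCNV2 values was not tested.

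UMIs were also pooled by sub-family, as shares of all potassium channel UMIs of a class that take no account of length. KCNH genes gave 31.8%, 45.9% and 51.8% of these UMIs in bipolar-like cells, KCNC genes 27.2%, 36.8% and 37.3% in amacrine-like cells, and KCNJ genes 42.7%, 34.9% and 29.7% in horizontal-like cells. The 8 members of most UMIs made up 82.0% of all member UMIs of the series. Within a sub-family the class of the highest mean varied: the 8 tested KCNJ members were divided into 2 rod-like, 2 amacrine-like, 3 horizontal-like and 1 Müller-like, and the 4 tested KCNC members into 1 cone-like, 2 amacrine-like and 1 horizontal-like.

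In the gene order of the RefSeq assembly UU_Cfam_GSD, 10 pairs of members were neighbours or had 1 protein-coding gene between them. Both genes passed the filter on low counts in 2 pairs, and in both pairs the genes were highest in different classes: KCNA1 in amacrine-like and KCNA5, another Shaker-type subunit, in bipolar-like cells, and KCNJ2 in horizontal-like and KCNJ16, an inward rectifier, in amacrine-like cells. The other 8 pairs hold a gene of few UMIs, so their classes are not compared.

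A few members were found mainly in cells outside the 6 tested classes. KCNJ8, the pore of ATP-sensitive channels in vessels, gave 4, 0 and 5 UMIs in the endothelial-like cells of the controls (11, 7 and 21 barcodes) and 11, 67 and 97 UMIs over the graft (29, 24 and 33 barcodes). The 0 in RC726 allows up to 26.5 CPM. KCNE4, an accessory subunit, gave 3, 6 and 7 UMIs in endothelial-like cells of the controls and 19, 166 and 130 over the graft. All genes of the endothelial-like cells together held 75683, 113213 and 456403 UMIs in control and 213646, 1137623 and 1336007 over the graft. The UMI numbers of KCNJ8 and KCNE4 therefore do not measure a change. Microglia-like cells held KCNE3, another accessory subunit, with 17 UMIs in 214 barcodes of the LG5 control and 63 in 712 over the graft. All genes together gave 453184 and 1855295 UMIs in these barcodes. With as few as 7 endothelial-like and 9 microglia-like barcodes in a library, these classes were not tested. KCNA4, an A-type subunit, KCNF1, a silent subunit, and KCNU1, a channel known from sperm, did not exceed 2.90 CPM in the control mean of any of the 6 classes.

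Over the graft, channel genes changed in both directions in rod-like cells, at a share not far above that of all genes. Of 29 members tested in rod-like cells, 4 fell and 4 rose (edgeR's quasi-likelihood test, experiment as a block, adjusted p under 0.05), 27.6% of the members, where 20.3% of all 15684 genes tested changed. The share of all genes that rose was 10.3% and the share that fell 10.0%. The median log2 change of the 29 members was 0.18 beside 0.01 over all genes, so the members as a list did not stand far from the rest.

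KCNJ14 fell most. It went from 276, 107 and 76.0 CPM in control to 67.2, 55.4 and 16.7 CPM over the graft in rod-like cells, with no overlap of the groups. The log2 change was -1.76 ± 0.21 (adjusted p = 0.000219), with the same direction in 3 of 3 experiments. The call was kept when any 1 of the experiments was left out, as was that of KCNV2.

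KCNV2 went from 599.9, 503 and 397 CPM to 261, 399 and 278 CPM in rod-like cells. It was lower over the graft in each of the 3 experiments, while the ranges of the groups met because the experiments differ in level. The log2 change was -0.73 ± 0.18 (adjusted p = 0.0151). KCNMB4 fell from 9.45, 17.1 and 20.5 CPM to 5.08, 13.8 and 13.2 CPM (-0.60 ± 0.18, adjusted p = 0.0326), a call that was lost without LG5 (adjusted p = 0.0612), without RC724 (0.153), by DESeq2 (0.0570) and with free RNA subtracted (0.0501, at a change of -0.61).

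The rod markers that define the class moved with these genes. Their sum in rod-like cells was 43666, 28938 and 28305 CPM in control and 23563, 23274 and 16181 CPM over the graft, with all 14 markers detected in every library. Median UMIs per rod-like barcode were 815, 1565 and 1565 in control and 851.5, 1675 and 1831 over the graft. The median mitochondrial share was 4%, 2.01% and 2.79% in control and 3.055%, 3.605% and 4.415% over the graft, so LG5 alone had the lower share over the graft. The rod-marker limit of the class follows the rod-marker share of each library, and so it was lower over the graft. It was 0.8396%, 0.6648% and 0.3559% of a barcode's UMIs in control and 0.3921%, 0.4863% and 0.2491% over the graft. The part of this limit, of depth and of mitochondrial share in the changes of rod-like cells was not tested.

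**Figure D3:**
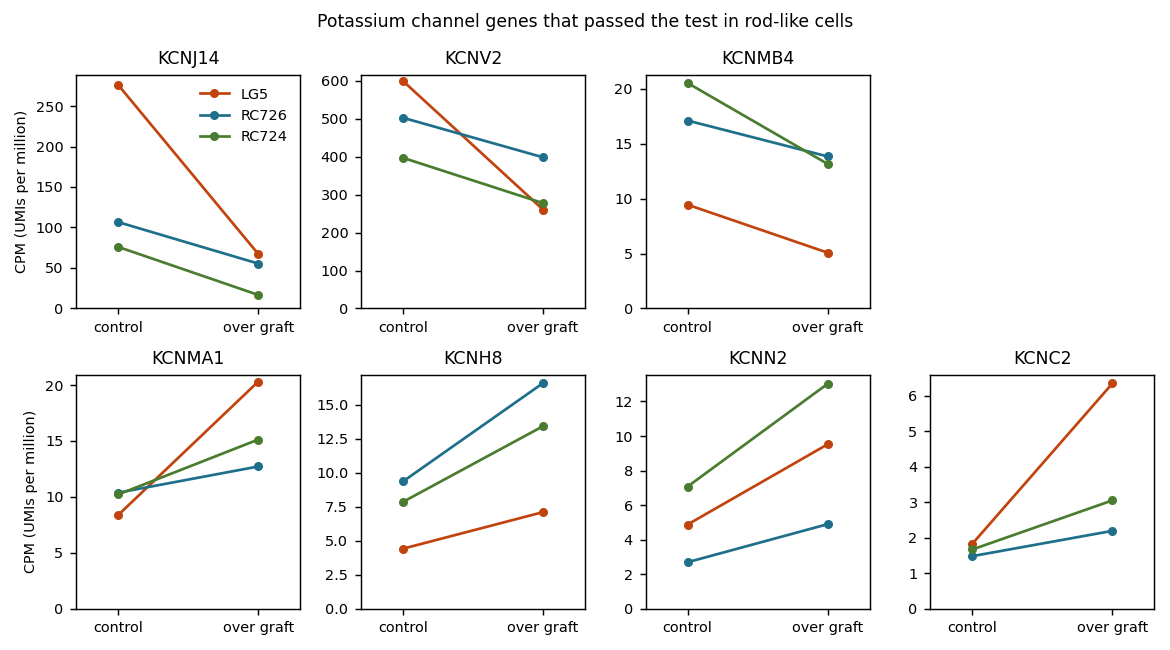
CPM in rod-like cells of the control punch (left) and the punch over the graft (right), 1 line per experiment, for 7 of the 8 potassium channel genes with an adjusted p under 0.05. All lines of the upper row fall and all lines of the lower row rise, and the lower genes stay at or below 20.3 CPM.

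The 4 genes that rose in rod-like cells were all at low levels there. KCNN2 went from 4.88, 2.70 and 7.08 CPM to 9.52, 4.90 and 13.03 CPM (0.85 ± 0.21, adjusted p = 0.0142), and KCNH8, an ether-a-go-go-like subunit, from 4.42, 9.37 and 7.86 CPM to 7.11, 16.6 and 13.4 CPM (0.74 ± 0.18, adjusted p = 0.0142). KCNMA1 went from 8.38, 10.4 and 10.2 CPM to 20.3, 12.7 and 15.1 CPM (0.63 ± 0.19, adjusted p = 0.0351). KCNC2 went from 1.83, 1.48 and 1.67 CPM to 6.35, 2.20 and 3.05 CPM (0.99 ± 0.32, adjusted p = 0.0458), on 12, 22 and 17 UMIs in control and 50, 39 and 45 over the graft. The groups did not overlap for KCNMA1 and KCNC2, and did for KCNN2 and KCNH8.

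These 4 genes are at their highest in bipolar-like or amacrine-like cells. The summed bipolar markers in rod-like cells were 747, 740.1 and 1182 CPM in control and 831, 713 and 1047 CPM over the graft, so they were higher in LG5 and lower in RC726 and RC724, with 0 to 3 of the 20 without a UMI. The summed amacrine markers were 302, 851 and 1208 CPM in control and 362.5, 929.6 and 1324 CPM over the graft, higher in all 3 experiments, and all 10 of them were detected in every library. With free RNA subtracted, the 4 genes kept an adjusted p under 0.05, from 0.00327 for KCNH8 to 0.0369 for KCNN2, while their log2 changes grew to 3.48 for KCNMA1, 2.64 for KCNC2, 2.02 for KCNN2 and 1.53 for KCNH8. The size of these rises therefore depends on whether free RNA is subtracted. Leaving out an experiment ended calls: without RC724 all 4 were lost, without RC726 KCNN2, KCNH8 and KCNC2, and without LG5 KCNMA1 and KCNC2. DESeq2 did not call KCNMA1 (adjusted p = 0.0919) or KCNC2 (0.162).

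In bipolar-like cells KCNN2, at home there, showed no such rise, with 70.2, 535 and 731 CPM in control and 65.9, 553 and 773 CPM over the graft (-0.02 ± 0.12). The difference of its change from that in rod-like cells was -0.87 ± 0.19 (adjusted p = 0.0459), the only one called among the 25 members tested against rod-like cells in cone-like, 38 in Müller-like and 35 in bipolar-like cells, where 0.0615%, 1.17% and 1.23% of all genes were called. This call was lost without any 1 of the experiments, with adjusted p from 0.0979 to 0.426, and with free RNA subtracted (-1.84, adjusted p = 0.348). At an unadjusted p under 0.05, 7 members differed in bipolar-like, 2 in Müller-like and 0 in cone-like cells, beside 15%, 12.4% and 9.42% of all genes.

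In cone-like cells 1 of 14 members tested changed, where 3.15% of all genes did. KCNJ14 went from 115, 8.07 and 6.78 CPM to 28.6, 6.74 and 2.68 CPM (-1.49 ± 0.31, adjusted p = 0.0210), with the control of LG5 far above the other libraries. Without LG5 the adjusted p was 0.542, and by DESeq2 it was 0.103. The summed rod markers in cone-like cells moved with it, at 24395, 9248 and 7488 CPM in control and 14194, 9187 and 5942 CPM over the graft, and their part was not tested. KCNB2, the gene that sets cone-like cells apart, stood at 849, 5197 and 7302 CPM over the graft (-0.22 ± 0.19, adjusted p = 0.663). KCNV2 had a change of -0.59 ± 0.20 (adjusted p = 0.1497), short of the threshold in this class.

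In amacrine-like cells KCNH7 rose, 1 of 29 members tested, where 0.502% of all genes changed. It went from 15.5, 46.4 and 42.6 CPM to 26.2, 126 and 154 CPM (1.48 ± 0.23, adjusted p = 0.00210), higher in 3 of 3 experiments. KCNH7 marks bipolar-like cells, and the summed bipolar markers in amacrine-like cells were 446, 369 and 459.8 CPM in control and 578, 377 and 360.0 CPM over the graft. Free RNA was estimated at 15.7%, 7.92% and 9.88% of the UMIs of amacrine-like cells in control and at 37.7%, 5.41% and 14.8% over the graft. The part of either in the rise was not tested. Without RC724 the adjusted p was 0.166, and with free RNA subtracted the change was 2.09 (adjusted p = 0.0582). DESeq2 gave an adjusted p for 6 members in this class and called 0, so the call of KCNH7 was not kept there. KCNC2, the KCNC gene of most control UMIs, stood at 181, 1048 and 1038 CPM over the graft (-0.09 ± 0.16, adjusted p = 0.948).

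In bipolar-like, horizontal-like and Müller-like cells edgeR called no member. The share of all genes called was 0.178% in bipolar-like, 0.166% in horizontal-like and 0.0174% (3 genes of 17277) in Müller-like cells. At an unadjusted p under 0.05 there were 5 of 24 members tested in bipolar-like cells, beside 12.7% of all genes, 1 of 12 in horizontal-like cells, beside 5.36%, and 10 of 36 in Müller-like cells, beside 13.2%. DESeq2 called 2 members in Müller-like cells, KCNB2 and KCNJ14, and 0 in the other 2 classes. The share of all genes called by DESeq2 was not counted. The 2 calls can therefore not be set against the edgeR shares above.

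KCNB2 in Müller-like cells was at 8.95, 8.34 and 23.2 CPM in control and 12.3, 33.4 and 54.4 CPM over the graft, and KCNJ14 at 63.1, 8.73 and 5.82 CPM in control and 13.03, 6.42 and 3.45 CPM over the graft. KCNB2 was higher and KCNJ14 lower in each experiment. By edgeR the changes were 1.17 ± 0.25 (adjusted p = 0.139) and -1.27 ± 0.33 (adjusted p = 0.194), by DESeq2 1.17 (adjusted p = 0.00367) and -1.24 (adjusted p = 0.0152). The summed cone markers in these cells were 375, 95.1 and 51.7 CPM in control and 264, 108 and 100.2 CPM over the graft, and the summed rod markers 9181, 1141 and 826 CPM and 3715, 1245 and 800.0 CPM. The part of these photoreceptor RNAs in the values was not tested.

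KCNJ10 in Müller-like cells was at 142, 77.2 and 117 CPM over the graft, beside 124, 57.3 and 80.6 CPM in control. The value over the graft was higher in each of the 3 experiments, by 0.34 ± 0.12 log2 units (adjusted p = 0.295, edgeR's quasi-likelihood test). KCNE1 stood at 45.9, 29.2 and 25.6 CPM over the graft (-0.08 ± 0.14), KCNJ2 and KCNK1 of horizontal-like cells at 37.9, 48.5 and 21.7 CPM and at 51.6, 59.9 and 35.7 CPM. KCNB2 in horizontal-like cells was at 3.47, 10.7 and 16.7 CPM in control and 34.4, 37.1 and 40.004 CPM over the graft (1.64 ± 0.42, adjusted p = 0.226), where the summed rod markers were 1747, 617 and 456 CPM in control and 2522, 1674 and 545 CPM over the graft. The summed cone markers there were 149, 69.7 and 27.9 CPM in control and 203, 131 and 36.5 CPM over the graft, and the part of photoreceptor RNA in the KCNB2 values was not tested.

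**Figure D4:**
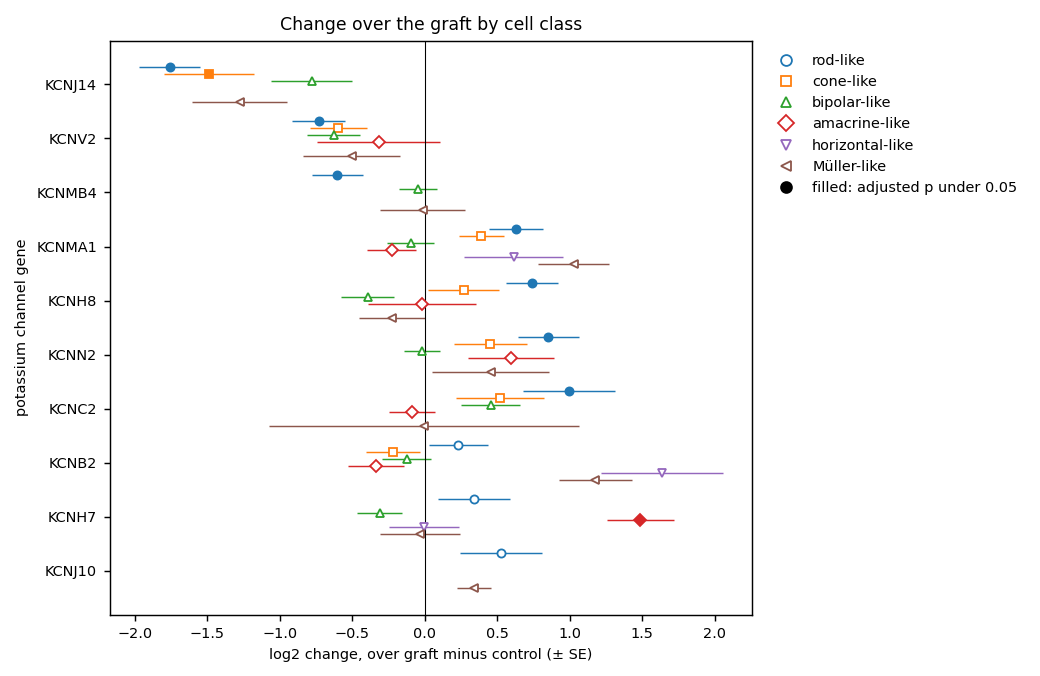
Log2 change over the graft minus control with its SE from the edgeR fit (horizontal axis) for 10 potassium channel genes (vertical axis) in each cell class in which the gene was tested, with filled symbols for an adjusted p under 0.05. KCNJ14 lies at -1.76 in rod-like and -1.49 in cone-like cells, and the filled KCNH7 symbol at 1.48 is that of amacrine-like cells.

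Added together, potassium channel genes made up 3710.4, 2169 and 2412.5 CPM of control rod-like cells and 1973, 1797 and 1658 CPM over the graft, lower in each experiment. In bipolar-like cells the sums were 1595, 5174 and 6557 CPM and 1319.5, 5257 and 6658 CPM, and in Müller-like cells 968, 457 and 386 CPM and 539, 429 and 571 CPM. These sums weigh genes by their UMIs, so the most abundant genes set most of each sum.

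Genes that work with the channels were taken from a list of auxiliary and anchoring partners, of potassium transport and of hyperpolarization-activated cation channels. In rod-like cells 2 of 20 partners tested fell and 0 rose, 2 of 8 transport genes fell and 0 rose, and 0 of 3 hyperpolarization-activated channels changed, where 10.3% of all genes rose and 10.0% fell, with medians of -0.03, -0.19 and 0.30. KCNIP2, a calcium-binding protein that joins KCND channels, went from 7.47, 16.5 and 21.3 CPM to 4.44, 10.6 and 10.9 CPM (-0.82 ± 0.17, adjusted p = 0.00584), and ANK3, the scaffold ankyrin-G, from 501, 2676 and 2928 CPM to 283, 1857 and 1641 CPM (-0.78 ± 0.17, adjusted p = 0.00693). SLC12A5, a potassium-chloride cotransporter, went from 169.5, 114 and 153 CPM to 140.2, 80.7 and 72.7 CPM (-0.66 ± 0.14, adjusted p = 0.006005). ATP1B2, a subunit of the sodium-potassium pump, went from 416, 173 and 165 CPM to 282, 159 and 112 CPM (-0.46 ± 0.13, adjusted p = 0.0316). All 4 were lower over the graft in 3 of 3 experiments, and all 4 calls were lost without RC724, with adjusted p from 0.0715 to 0.178. That of ATP1B2 was also lost without LG5 (adjusted p = 0.0851) and with free RNA subtracted (0.0508, at an almost equal change of -0.46).

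In horizontal-like cells 1 of 12 partners changed, where 0.166% of all genes did: KCNIP4, another calcium-binding partner of KCND channels, went from 10.4, 402 and 107 CPM to 3.44, 82.7 and 7.83 CPM (-2.80 ± 0.31, adjusted p = 0.000142). It was lower in each experiment, on 22 to 103 barcodes a library. In LG5, however, 3 UMIs make 10.4 CPM in control and 10.3 CPM over the graft. Both LG5 values thus rest on no more than 3 UMIs, too few to give a direction. In amacrine-like cells, where KCNIP4 stood at 28.0, 1324 and 887 CPM in control, it was at 22.3, 632 and 1034 CPM over the graft. The summed amacrine markers in horizontal-like cells were 669, 799.0 and 646 CPM in control and 643.5, 730.1 and 715 CPM over the graft. The summed Müller markers there were 3133, 2732 and 2017 CPM in control and 2471, 947 and 869.6 CPM over the graft, lower in each experiment, and the summed bipolar markers 315, 831 and 82.6 CPM and 416, 231 and 216 CPM. KCNIP4 itself stood at 90.9, 374 and 356 CPM in control Müller-like cells and at 11.2, 443 and 201 CPM in control bipolar-like cells. The part of RNA from these classes in the fall was not tested, and with free RNA subtracted the change was -4.02 (adjusted p = 0.00295). In cone-like, bipolar-like, amacrine-like and Müller-like cells edgeR called no gene of these lists. At an unadjusted p under 0.05 there were 1, 0, 4 and 3 partners, 2, 0, 0 and 0 transport genes and 1, 1, 1 and 0 hyperpolarization-activated channels in the 4 classes, beside 15.1%, 12.7%, 8.32% and 13.2% of all genes. In Müller-like cells DESeq2 called KCNAB1, a beta subunit of KCNA channels (-1.42, adjusted p = 1.6e-08), for which edgeR gave -1.41 ± 0.17 (adjusted p = 0.0679).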

How the data were processed

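The members and gene lists were chosen with earlier results of these data known. The authors deposited whole-number UMI counts for each gene in each barcode; Cell Ranger's version was 6.0.2 for LG5, 7.1.0 (over the graft) and 7.0.0 (control) for RC726 and 7.1.0 for RC724, per the file headers. Both LG5 and both RC724 libraries share a version. Not given in the sources used here: the build, the annotation, intron handling and how human reads were removed. All columns were mapped to a sample (0 unmapped). Of 34981 gene names, 33363 are in the RefSeq table, as are 85 of the 86 members.

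Kept barcodes had 300 genes or more and no more than 20% mitochondrial UMIs (13 genes). Scrublet's own threshold marked at most 0.0351% of barcodes, so the 6% with the highest score were removed per library. A barcode joined a class when at least 3 of its markers were seen, their share of UMIs passed a limit (0.1% to 1.0% by class), and, where another class passed too, the share relative to its limit was at least 2 times that of the other. Rod-like barcodes passed no other limit and held at least 0.5 of the rod-marker share of their library. All these limits were chosen with the data in view, and 2.09% to 6.02% of barcodes lay near one.

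UMIs were summed per library and class (classes with at least 20 barcodes in each library) and tested with edgeR 4.0.16 in R 4.3.3: quasi-likelihood, filterByExpr, TMM, experiment as a block, Benjamini-Hochberg over all genes at 0.05. The SE is the log2 change divided by the square root of F. The block rests on the labels, which give each experiment a punch over the graft and a control punch. Sums of the same experiment deviated together from their group means (correlations 0.634 to 0.950 over the 6 classes and 3 experiments). On simulated data, 100 genes were changed by 1 log2 unit and 100 by 2 in each comparison. In the rod-like comparison (15684 genes) 77% and 93% of them were recovered. The shares were 59% and 89% in cone-like (11637) and 55% and 86% in Müller-like cells (17277). False calls among unchanged genes numbered 16 in the rod-like, 12 in the cone-like and 22 in the Müller-like comparison. The 10 alternatives include DESeq2 1.42.0 and free RNA estimated from another class's markers and subtracted. Its profile was that of all kept barcodes of the library pooled, not of empty droplets.

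Named members are those past the threshold for the change and up to 4 per class with the largest log2 difference in control. The latter also had an adjusted p under 0.05 for that difference and 10 CPM or more in the class. A few were set by name (KCNJ10, KCNJ2, KCNJ8, KCNJ13, KCNV2, KCNB2, KCNMA1, KCNK1, KCNQ1, KCNH2 and KCNA1). The member of most control UMIs per sub-family was also taken. Partner genes past the threshold are named too. Values of 2 members are not reported here, though the counts over members include them. Tables and figures used matplotlib 3.10.9, scanpy 1.11.5, anndata 0.12.19, scipy 1.17.1, pandas 2.3.3 and numpy 2.4.6 in Python 3.11.15. Intervals and limits cover counting error only.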

Additional observations from a re-analysis of the deposited data

Results flagged for a closer look

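The change of KCNN2 in bipolar-like cells differed from that in rod-like cells by -0.87 log2 units (edgeR's interaction term, adjusted p = 0.0459), which is why it stands here: the gene rose where it is low and had a change of -0.02 ± 0.12 where it is high.

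KCNH7 rose in each experiment in amacrine-like cells and was lower in each experiment in bipolar-like cells. The mean log2 ratios on CPM plus 1 were 1.32 and -0.28, a difference of -1.60 that was not tested.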

How the results depend on the processing

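No value that was recomputed changed direction under the alternatives run for it. The change of KCNIP4 in horizontal-like cells gave no value with the stricter gate or without RC726, nor did the class difference of KCNK9 without RC726, and changes of genes that missed the threshold are not covered. The 46 members higher in at least 1 class were 44 to 57 under all of them. The 8 members changed in rod-like cells became 5 with DESeq2, 3 to 6 with 1 experiment left out and 0 without the replicate block, and numbered 8 or 9 with other scaling, no count filter, a stricter gate, no doublet removal or free RNA subtracted. With free RNA subtracted KCNMB4 was not among the 9, and KCNH5 and KCNH7 were, and with 1 experiment left out KCNJ13 and KCNB2 came in. The 2 changes in the other classes became 10 without the count filter, 1 with free RNA subtracted, 1 to 5 with 1 experiment left out and 0 without the block. With DESeq2 there were again 2, but these were KCNB2 and KCNJ14 in Müller-like cells. The calls of KCNJ14 in cone-like and KCNH7 in amacrine-like cells were both lost there. The 4 partner and transport genes in rod-like cells became 8 without the filter, 1 to 5 with 1 experiment left out and 0 without the block. The 1 difference from rod-like cells became 6 without the filter, 2 with DESeq2, 2 with free RNA subtracted, 0 with RLE size factors, 0 with the stricter gate, 0 to 2 with 1 experiment left out and 0 without the block. Fewer samples enter when an experiment is left out, and more genes are tested without the filter. The cause of the other shifts was not tested. The share of all genes called was not counted in these settings. The counts therefore do not tell a shift of the listed genes from a shift in the calls of all genes. The replicate block pairs the punches of an experiment, and without it the smallest adjusted p of a named change was 0.9999. Over single named genes, all 219 alternative values of class differences kept their side of the threshold, as did 98 for changes and 3 for the difference, while 40 and 7 did not. Genes of a few CPM in rod-like cells and the classes of 22 to 103 or 45 to 447 barcodes limit what could be detected.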
